A study of Rattus norvegicus with 8 samples.

Results

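The TGF-beta superfamily was examined through 37 listed genes, namely its ligands, receptors, SMAD proteins, extracellular regulators and the ID target genes, of which 36 had a probe set that names 1 gene. The members were read by symbol from a table of 14506 genes measured in fetal rat pancreatic islets. Tgfbr2, the type II TGF-beta receptor gene, was the 1 member not analysed here. Each of the 36 was represented by 1 probe set, and 31 lay above the dimmest 30% of genes, which held Acvr2b, Bmp5, Bmpr1b, Smad7 and Nog.

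The animals were Sprague-Dawley rats. Dams were operated on at embryonic day 18, either to restrict the growth of their fetuses (IUGR, for intrauterine growth restriction) or as sham controls, and fetal islets were isolated on embryonic day 19. The islets of a whole litter were pooled for 1 array, so the replicate is the litter, with 4 sham and 4 IUGR litters. All values are log2 expression after RMA, a procedure that corrects background, normalizes arrays and summarises probes.

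Ligands of this superfamily are secreted dimers that bring type II and type I receptor kinases together at the cell surface. TGF-beta and activin receptors phosphorylate SMAD2 and SMAD3, BMP receptors phosphorylate SMAD1, SMAD5 and SMAD9, and both sets enter the nucleus with SMAD4. In the developing pancreas, signals from the mesenchyme through these receptors are known to influence the balance of endocrine, duct and acinar cells, and the ID genes are classical targets of BMP signalling.

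None of the 36 members passed an adjusted p of 0.05 (limma, Benjamini-Hochberg over all 14506 genes), against 0.248% of all genes. At an unadjusted p under 0.05 there were 5 of 36 members (13.9%), 4 higher and 1 lower, against 26.1% of all genes. The 5 were Acvr1b, Acvr2b, Smad3 and Bmp2, which were higher in IUGR litters, and Tgfb1, which was lower. In 3 of 36 members (8.33%) the ranges of the groups were separate, against 15.5% of all genes; each of the 3 had an exact permutation p of 0.0286, two-sided, the smallest that 4 against 4 litters allow. Both shares lay below those of the whole table, so the family as a whole did not stand out from other genes in this comparison. Of the 3, Acvr1b and Acvr2b were higher, where 10.0% of all genes were higher without overlap. Tgfb1 was lower, where 5.45% of all genes were lower without overlap.

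The zero count depended on the litters. Without sham replicate 1, Acvr1b, Acvr2a, Acvr2b and Bmp2 passed the threshold, 4 of 36 members against 18.9% of all genes. Without sham replicate 4, Acvr1b alone passed, against 1.08% of all genes. With both left out, a choice made after seeing the data, the same 4 genes passed as without sham replicate 1, against 19.3% of all genes. Leaving out any other single litter gave 0 members. Array weights, which limma estimates to give less weight to arrays far from the rest, called 9 members against 43.8% of all genes: those 4 and Smad3, Grem1, Smad6, Smad7 and Tgfb1. The weights were 0.26, 1.03, 7.82 and 0.20 for sham replicates 1 to 4, and 0.59 to 1.88 for IUGR litters. Those 9 calls therefore rest mostly on sham replicate 3 for the sham side.

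The upstream sequences of the 3 members without overlap are shown with that of Id1, a textbook SMAD target. The windows are the 250 bases before the annotated transcript start, from RefSeq (GRCr8), written 5′ to 3′ along the gene. Motifs linked to SMAD binding were searched on both strands, and capitals mark their letters. The first was GTCT, the core SMAD-binding element. The longer form CAGAC holds its complement and so overlaps it. A palindrome of the core, GTCTAGAC, was searched as well. The last was the GC-rich element GGCGCC.
Acvr1b, chr7:134164751-134165000, plus strand: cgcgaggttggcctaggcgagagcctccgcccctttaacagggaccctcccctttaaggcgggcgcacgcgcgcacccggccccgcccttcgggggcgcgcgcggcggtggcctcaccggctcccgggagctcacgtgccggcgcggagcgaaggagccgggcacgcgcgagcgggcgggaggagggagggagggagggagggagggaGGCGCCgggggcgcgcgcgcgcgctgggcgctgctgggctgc
Acvr2b, chr8:128016513-128016762, plus strand: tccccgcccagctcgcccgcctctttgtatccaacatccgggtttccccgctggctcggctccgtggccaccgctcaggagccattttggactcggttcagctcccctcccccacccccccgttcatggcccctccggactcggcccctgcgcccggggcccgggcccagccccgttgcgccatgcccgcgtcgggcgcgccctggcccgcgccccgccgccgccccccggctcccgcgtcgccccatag
Tgfb1, chr1:90324062-90324311, plus strand: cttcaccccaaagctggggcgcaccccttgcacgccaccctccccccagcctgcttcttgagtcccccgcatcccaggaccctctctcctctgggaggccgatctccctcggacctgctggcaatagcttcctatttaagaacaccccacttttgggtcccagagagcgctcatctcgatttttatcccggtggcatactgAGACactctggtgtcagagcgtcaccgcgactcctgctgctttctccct
Id1, chr3:161671314-161671563, plus strand: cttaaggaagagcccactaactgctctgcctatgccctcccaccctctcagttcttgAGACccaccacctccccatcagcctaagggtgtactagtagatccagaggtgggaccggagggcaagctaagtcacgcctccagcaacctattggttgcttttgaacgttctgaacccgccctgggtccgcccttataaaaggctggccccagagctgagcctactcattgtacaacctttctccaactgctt

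The window of Acvr1b held 1 GGCGCC and that of Acvr2b held none of the 4 motifs. Both were rich in G and C (79.6% and 76.8%), while those of Tgfb1 (60%) and Id1 (54.8%) were less so and held 1 GTCT element each. Windows were found for 31 of the 37 listed genes, without Fst, Bmp2, Bmp7, Acvr1, Bmpr1b and Smad6. GTCT was present in 21 of the 31 genes (67.7%), against 84% of all 33469 windows of this length, and CAGAC in 6 (19.4%) against 42.9%. GGCGCC was present in 9 (29%), against 8.69% of all windows, and GTCTAGAC in 0, against 0.173%. Members were counted as genes, 2 of them with several windows, and the background as single windows. The G and C content of members and of all windows was not compared. These matches describe letters only, and no binding was measured.

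**Figure D1:**
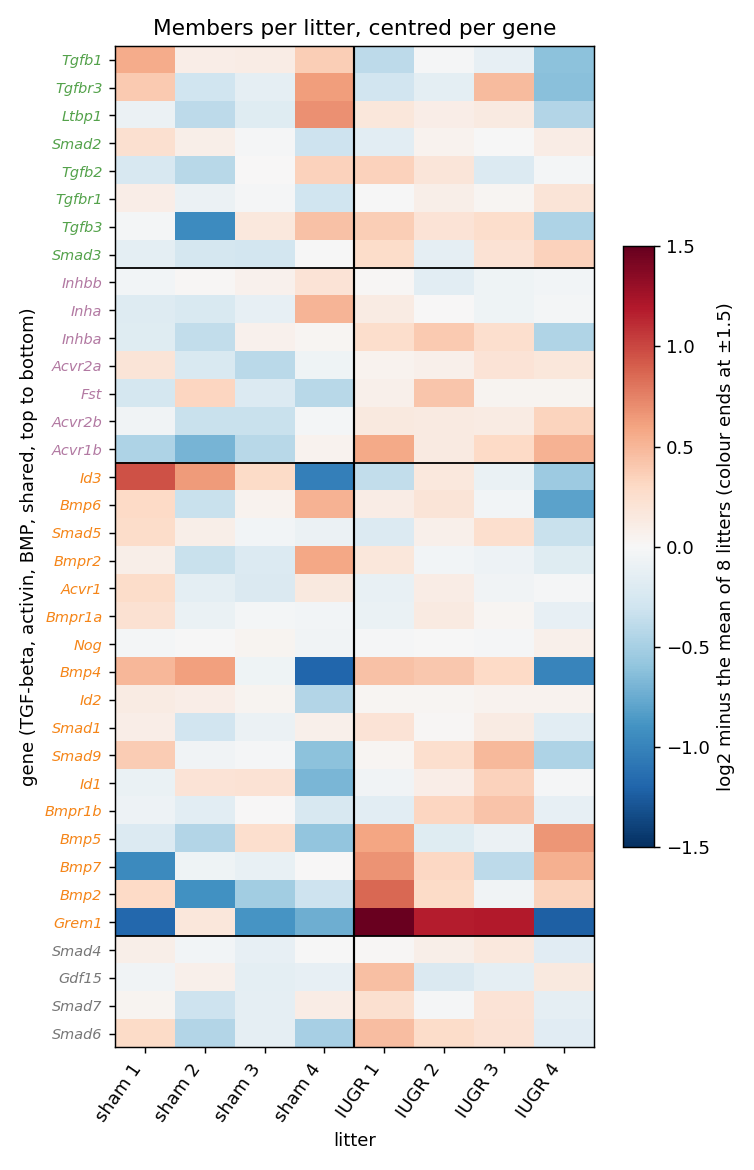
Expression of the 36 members (rows) in 8 litters (columns), as log2 value minus the gene's mean over all litters, with members grouped by arm and sorted by difference. Grem1, Bmp4 and Id3 show the strongest colours, which vary within groups. The IUGR litters keep 1 side of the scale for Acvr1b, Acvr2b and Tgfb1, and also for Acvr2a, Fst and Id2.

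The islet hormone genes Ins1, Ins2 and Gcg lay between 13.15 and 14.24 on every array, so hormone transcripts were abundant. The acinar genes Ctrb1 (13.08 to 14.06) and Cpa1 (13.04 to 14.05) were nearly as bright. These levels therefore do not tell how pure the islets were. Marker lists of other pancreatic and blood cell types moved with the groups. All 10 measured duct genes were higher in IUGR litters (list mean per litter 10.95 to 11.38, against 9.76 to 10.42 in sham litters), 1 of them past the threshold. All 12 acinar genes were higher (10.56 to 11.58 against 8.95 to 10.44), as were all 12 liver protein genes (11.76 to 12.98 against 9.50 to 11.90), with 0 past the threshold in either list. All 14 mesenchyme genes were lower (10.78 to 11.88 against 11.94 to 12.39), as were all 12 macrophage genes (9.44 to 10.58 against 10.37 to 11.16), all 11 endothelial genes (10.55 to 11.18 against 10.98 to 11.65) and all 5 erythroid genes (11.20 to 12.48 against 12.32 to 12.89), with 0 past the threshold in each. Of 10 islet genes, 6 were higher (11.31 to 11.82 against 11.06 to 12.57), and sham replicate 4 held the highest islet mean. Fewer cells of a type and less RNA per cell cannot be told apart in pooled tissue. Duct, acinar and mesenchyme means did not overlap between the groups. Their part in the members' differences was not tested.

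Scaling moved small differences. The median difference of all genes was 0.038, and of the members 0.13. Centring each array on its median gave -0.19 and -0.096, quantile normalization 0.039 and 0.044, and cyclic loess 0.0092 and 0.031. Of the 36 members, 25 were higher in IUGR litters (69.4%, against 55.1% of all genes), but quantile normalization left 22, cyclic loess 19 and median centring 11. Of all 14506 genes, the same rescalings left 8280, 7520 and 4071 higher, in that order. Under median centring the shares were 30.6% of members and 28.1% of all genes. Members whose sign turned under a scaling are named in the closing section.

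Among the TGF-beta ligands, Tgfb1 had the clearest difference. Tgfb1 encodes the most widely expressed TGF-beta and is made by immune, endothelial and stromal cells. Its values were 11.46, 11.01, 11.02 and 11.28 in sham replicates 1 to 4 and 10.51, 10.89, 10.78 and 10.29 in IUGR replicates 1 to 4. Every IUGR litter lay below every sham litter. The difference was -0.57 ± 0.16 (SE, n = 4 litters per group), a level 1.49-fold lower, with an adjusted p of 0.12 (limma). It stayed without overlap when arrays were quantile normalized (-0.68), loess normalized (-0.70) or median centred (-0.80). With array weights it was -0.33 (adjusted p = 0.037, limma), in a fit where sham replicate 3 had most of the sham weight. Tgfb1, the mesenchyme marker mean and the endothelial marker mean were all lowest in IUGR replicate 4. Of the sham litters, Tgfb1 and the macrophage mean were highest in replicate 1, and mesenchyme and endothelial means in replicate 4. The macrophage mean was lowest in IUGR replicate 1 (9.44), with 9.66 in IUGR replicate 4. The part of these cells in the Tgfb1 difference was not tested.

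Tgfb2 and Tgfb3, the ligands more restricted to developing epithelium and mesenchyme, had differences above 0 on the deposited values. Tgfb2 ranged from 9.76 to 10.53 in sham and from 9.97 to 10.52 in IUGR litters, and Tgfb3 from 7.97 to 9.35 and from 8.44 to 9.27. The differences were 0.15 ± 0.19 for Tgfb2 and 0.19 ± 0.31 for Tgfb3 (SE), and the groups overlapped in both. Whether the 3 ligands differ from each other in response was not tested.

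Activin ligands are dimers of inhibin beta subunits, and the alpha subunit Inha turns them into inhibins, which oppose activin. Inhba was 7.70, 7.52, 7.95 and 7.91 in sham and 8.14, 8.28, 8.13 and 7.44 in IUGR replicates 1 to 4. IUGR replicates 1 to 3 thus lay above all sham litters and IUGR replicate 4 below them, for a difference of 0.23 ± 0.19 (SE). Inhbb was 7.98, 8.03, 8.09 and 8.22 in sham and 8.04, 7.86, 7.95 and 7.98 in IUGR litters, and differed by -0.12 ± 0.084 (SE). Inha differed by 0.016 ± 0.17 (SE), with 7.80 in sham replicate 4 above the other 7 litters (7.07 to 7.42).

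Of the BMP ligands, Bmp2 had the smallest p. Bmp2, which signals through BMP receptors in mesenchyme and epithelium, was 8.10, 6.90, 7.28 and 7.49 in sham and 8.67, 8.10, 7.75 and 8.14 in IUGR litters. Sham replicate 1 lay among the IUGR litters and the other sham litters below them. The difference was 0.72 ± 0.28 (SE), or 1.65-fold, with an adjusted p of 0.16 (limma), and it was 0.94 without sham replicate 1 (adjusted p = 0.036, limma). Bmp7, a ligand of renal and other epithelial development, was 9.25, 10.15, 10.10 and 10.22 in sham and 10.89, 10.52, 9.82 and 10.75 in IUGR litters. Sham replicate 1 was far below the rest and IUGR replicate 3 below the other sham litters, and the groups overlapped. The difference was 0.56 ± 0.29 (SE), and 0.34 without sham replicate 1. Bmp5 was 6.68, 6.45, 7.14 and 6.30 in sham and 7.48, 6.71, 6.81 and 7.56 in IUGR litters, with overlap and a difference of 0.50 ± 0.25 (SE).

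Bmp6 was lower in IUGR litters on average and Bmp4 near equal, both with overlap. Bmp4, a mesenchymal ligand, ranged from 10.15 to 11.94 in sham and from 10.34 to 11.78 in IUGR litters and differed by 0.074 ± 0.46 (SE). The interval of that difference, -0.99 to 1.14, is wide enough to hold a 2-fold higher level. Sham replicate 4 and IUGR replicate 4 were far below the other 6 litters. Bmp6, also made by endothelial cells, ranged from 9.24 to 10.10 and from 8.78 to 9.77 and differed by -0.27 ± 0.26 (SE).

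Gdf15 encodes a distant member of the superfamily that is induced by cell stress and signals through its own receptor. It was 8.61, 8.75, 8.53 and 8.54 in sham and 9.12, 8.45, 8.54 and 8.82 in IUGR litters. IUGR replicate 1 was the highest and IUGR replicate 2 the lowest of the 8, and the difference was 0.12 ± 0.15 (SE).

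Both members that were higher in IUGR litters without overlap were activin receptors. Acvr1b, the type I receptor kinase of activin and nodal, was 8.39, 8.15, 8.44 and 8.90 in sham and 9.41, 8.98, 9.15 and 9.37 in IUGR replicates 1 to 4. The groups did not overlap, and sham replicate 4 came nearest to the IUGR litters. The difference was 0.76 ± 0.17 (SE), or 1.69-fold, with a 95% interval of 0.36 to 1.16 and an adjusted p of 0.090 (limma). Quantile normalization gave 0.63, cyclic loess 0.62 and median centring 0.53, and the groups overlapped in all 3. Without sham replicate 4 it was 0.90 (adjusted p = 0.042) and without sham replicate 1 it was 0.73 (adjusted p = 0.044, limma).

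Acvr2b, a type II activin receptor, was 6.70, 6.43, 6.42 and 6.73 in sham and 6.91, 6.90, 6.89 and 7.10 in IUGR litters. The groups did not overlap, though the whole range was narrow and the gene was among the 30% with the lowest mean signal. Its difference of 0.38 ± 0.11 (SE; adjusted p = 0.12, limma) was 0.54 under quantile normalization and 0.48 under cyclic loess, both without overlap, and was 0.15 with overlap under median centring. Without sham replicate 1 it was 0.42 (adjusted p = 0.039, limma).

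Acvr2a, the other type II activin receptor, was 9.39, 8.96, 8.79 and 9.13 in sham and 9.24, 9.27, 9.39 and 9.36 in IUGR litters. Sham replicate 1 lay at the top of the IUGR range and the other 3 below it. The difference was 0.25 ± 0.13 (SE), and 0.36 without sham replicate 1 (adjusted p = 0.048, limma), but 0.10 under quantile normalization and 0.018 under median centring. Duct and acinar marker means were also higher in IUGR litters than in sham litters. Their part in the differences of these receptors was not tested.

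The receptors of TGF-beta itself and of BMPs overlapped between the groups. Tgfbr1, the type I TGF-beta receptor kinase, was 10.30, 10.12, 10.19 and 9.91 in sham and 10.20, 10.29, 10.24 and 10.39 in IUGR litters, with overlap and a difference of 0.15 ± 0.10 (SE). Tgfbr3, the coreceptor betaglycan, ranged from 10.23 to 11.16 and from 9.90 to 11.00 and differed by -0.30 ± 0.28 (SE). Bmpr1b, a type I BMP receptor, was 6.54, 6.46, 6.63 and 6.38 in sham and 6.46, 6.94, 7.05 and 6.50 in IUGR litters. IUGR replicates 2 and 3 were high and the other IUGR litters lay within the sham range, with a difference of 0.23 ± 0.15 (SE). The other BMP receptors differed little. The difference (95% interval) was -0.028 (-0.26 to 0.21) for Bmpr1a, -0.031 (-0.32 to 0.26) for Acvr1 and -0.068 (-0.52 to 0.38) for the type II receptor Bmpr2.

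**Figure D2:**
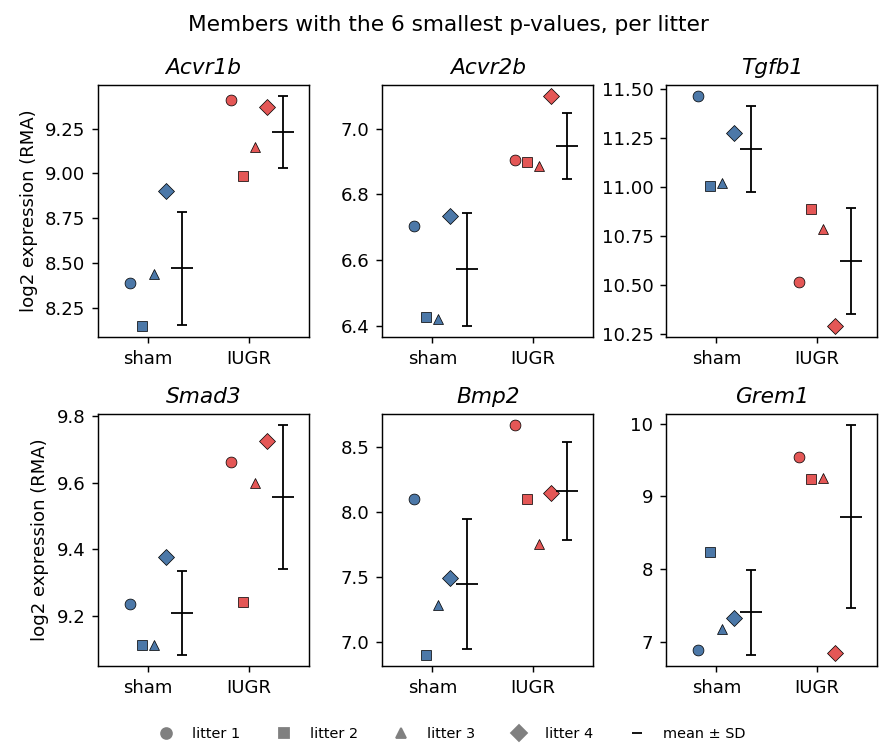
Log2 expression per litter of the 6 members with the smallest p-values, with the mean and SD of each group beside the points and 1 marker shape per replicate number. Acvr1b, Acvr2b and Tgfb1 show no overlap, whereas IUGR replicate 2 lies among the sham litters for Smad3 and IUGR replicate 4 lies below them for Grem1.

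Of the SMAD genes, Smad3, a signal carrier of TGF-beta and activin, had the smallest p. It was 9.24, 9.11, 9.11 and 9.38 in sham and 9.66, 9.24, 9.60 and 9.72 in IUGR litters. Only IUGR replicate 2 lay within the sham range. The difference was 0.35 ± 0.12 (SE), or 1.27-fold (adjusted p = 0.15, limma), and 0.19 under quantile normalization. Its partner Smad2 differed by -0.00088 (95% interval -0.29 to 0.29), and the shared Smad4 by 0.043 (-0.18 to 0.26). Both intervals, taken on the deposited values, exclude a 1.5-fold difference at this size of experiment.

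The BMP SMADs overlapped between the groups. Smad1 differed by 0.097 ± 0.12, Smad5 by -0.11 ± 0.15 and Smad9 by 0.15 ± 0.25 (SE). Of these, on the deposited values, the interval of Smad9 (-0.43 to 0.74) did not exclude a 1.5-fold difference. Smad6 and Smad7 are inhibitory SMADs that are induced by the pathway and limit it. Smad6 was 9.55, 8.82, 9.13 and 8.77 in sham and 9.73, 9.54, 9.48 and 9.09 in IUGR litters, a difference of 0.39 ± 0.20 (SE) in which sham replicates 1 and 3 lay among the IUGR litters. Smad7 was 7.07, 6.72, 6.90 and 7.14 in sham and 7.27, 7.01, 7.24 and 6.89 in IUGR litters and differed by 0.15 ± 0.13 (SE). The Smad7 groups overlapped broadly.

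Among the extracellular regulators, Grem1, a secreted BMP antagonist of mesenchymal cells, had the largest difference of any member and a wide error. It was 6.88, 8.23, 7.17 and 7.33 in sham and 9.54, 9.24, 9.25 and 6.84 in IUGR litters. IUGR replicates 1 to 3 lay well above all sham litters, while IUGR replicate 4 was the lowest of the 8. The difference was 1.31 ± 0.60 (SE; adjusted p = 0.21, limma), and 1.94 without IUGR replicate 4 (adjusted p = 0.084). The mesenchyme marker mean was also lowest in IUGR replicate 4 (10.78, against 11.61 to 11.88 in the other IUGR litters). In those other litters the marker mean lay below sham and Grem1 lay above sham. The part of mesenchyme cells in the Grem1 values was not tested.

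Fst encodes follistatin, which binds and neutralises activins. Fst was 7.27, 7.85, 7.32 and 7.12 in sham and 7.61, 7.96, 7.58 and 7.58 in IUGR litters. Sham replicate 2 and IUGR replicate 2 were the highest of their groups, the groups overlapped, and the difference was 0.29 ± 0.17 (SE). Nog, the BMP antagonist noggin, was nearly constant (6.48 to 6.61) and was among the 30% of genes with the lowest mean. Ltbp1, which stores latent TGF-beta in the matrix, differed by -0.014 ± 0.25 (SE) and was highest in sham replicate 4 (9.94) and lowest in IUGR replicate 4 (8.82).

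The ID genes encode proteins that block basic helix-loop-helix factors, and BMP signalling raises their transcription. Id1 was 10.77, 11.07, 11.08 and 10.18 in sham and 10.82, 10.97, 11.21 and 10.85 in IUGR litters. Id2 was 12.33, 12.31, 12.24 and 11.77 in sham litters and 12.23, 12.24, 12.26 and 12.26 in IUGR litters. Id3 was 11.52, 11.21, 10.85 and 9.54 in sham and 10.20, 10.73, 10.47 and 10.03 in IUGR litters. In all 3 genes sham replicate 4 was the lowest of the 8 litters. The differences were 0.19 ± 0.21 for Id1, 0.085 ± 0.13 for Id2 and -0.42 ± 0.40 for Id3 (SE), none past the threshold. Without sham replicate 4 they were -0.014, -0.046 and -0.84, the last with an adjusted p of 0.095 (limma).

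**Figure D3:**
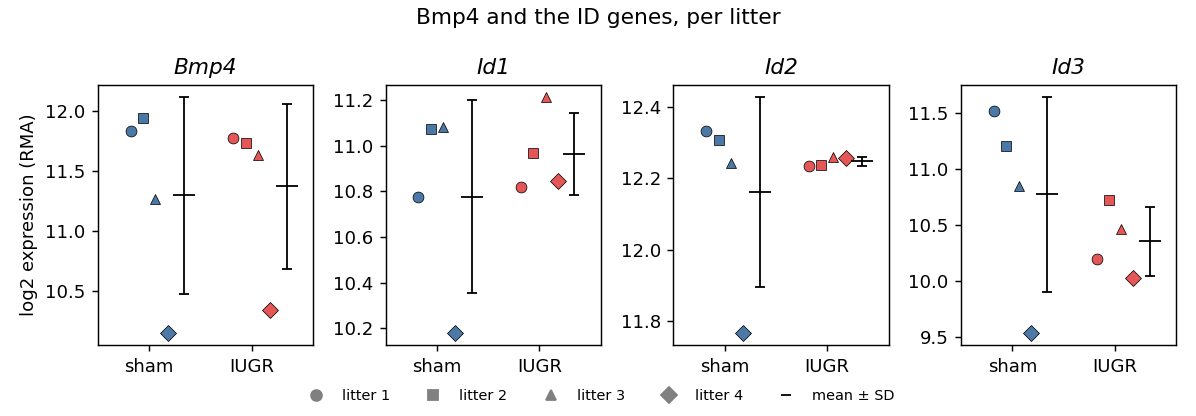
Log2 expression per litter of Bmp4 and of the ID genes Id1, Id2 and Id3, with the mean and SD of each group beside the points. Sham replicate 4 has the lowest value in all 4 panels, and for Bmp4 IUGR replicate 4 is low as well.

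The 3 arms of the family were then set side by side, against 55.1% of all genes higher and 15.5% without overlap. Of the 7 activin genes (ligand subunits, receptors and follistatin), 6 were higher, with a median difference of 0.25, and 2 showed no overlap. Of the 8 TGF-beta genes, 4 were higher, with a median of 0.074 and 1 gene without overlap. Of the 17 BMP genes, 11 were higher, with a median of 0.085 and 0 without overlap. The 4 genes listed outside these arms (Smad4, Smad6, Smad7 and Gdf15) were all higher, with a median of 0.13. Smad2 and Smad3 were counted with the TGF-beta genes only, although activin receptors use them too. The counts and medians of the arms depend on this assignment. These lists are short, none of their genes passed the threshold, and the arms were not tested against each other.

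The activin genes averaged 8.01 to 8.11 in IUGR litters and 7.72 to 7.97 in sham litters, without overlap but by a narrow gap. They were also separate under quantile normalization and cyclic loess, but under median centring the groups overlapped (-0.81 to -0.68 against -1.02 to -0.52). The TGF-beta genes averaged 9.79 to 10.09 against 9.71 to 10.22, and the BMP genes 9.24 to 9.65 against 9.16 to 9.49, both with overlap. The activin median was 0.20 under quantile normalization, 0.19 under cyclic loess and 0.018 under median centring, where all genes were at 0.039, 0.0092 and -0.19. In the same order the TGF-beta median was -0.055, -0.078 and -0.16, and the BMP median 0.016, 0.019 and -0.15. By role, 9 of 12 ligands, 5 of 9 receptors, 6 of 8 SMADs, 3 of 4 extracellular regulators and 2 of 3 ID genes were higher, against 55.1% of all genes. Under median centring these counts were 3, 4, 2, 2 and 0, against 28.1% of all genes.

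**Figure D4:**
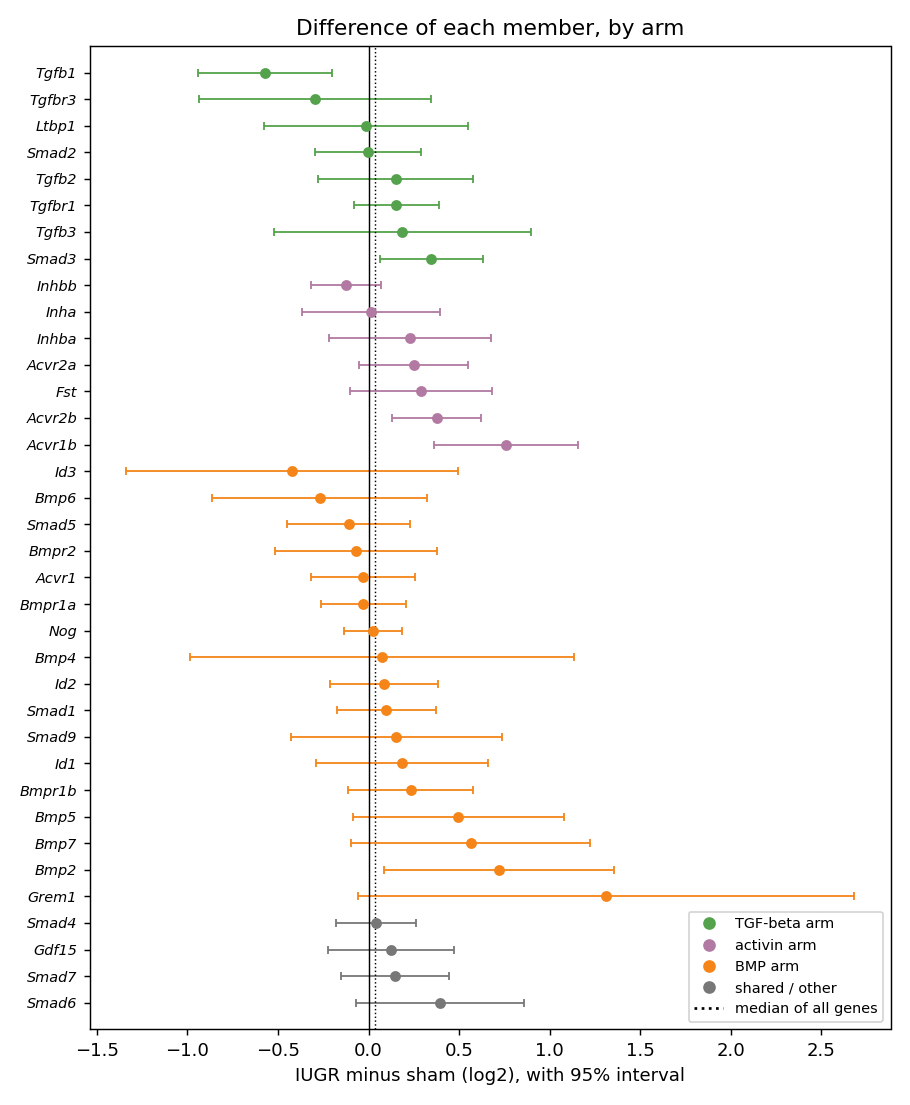
Difference of each member between IUGR and sham litters (log2) with its 95% interval from limma, coloured by arm, and the median of all genes as a dotted line at 0.038. Intervals of 5 members exclude 0, and the widest are those of Grem1, Bmp4 and Id3.

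On the deposited values, the 95% interval of the difference excluded a 1.5-fold change in either direction for 18 of the 36 members. The share of all genes with such an interval was not counted. Intervals under the other scalings were not examined, and median centring moved Smad5 to -0.34 and Bmpr2 to -0.30. Among them were Smad1, Smad2, Smad4, Smad5, Smad7, Tgfbr1, Bmpr1a, Bmpr2, Acvr1 and Acvr2a. For the other 18 the interval held such a change. Among these, the intervals of Acvr1b, Acvr2b, Smad3, Bmp2 and Tgfb1 excluded 0, whereas those of Bmp4, Tgfb3 and Id3 held both 0 and a 1.5-fold change.

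A wider list of 70 genes of the superfamily and its regulators held 54 measured genes. None passed the threshold, and 10 (18.5%) had an unadjusted p under 0.05, 7 higher and 3 lower. The list's median difference was -0.025, and 2 genes showed no overlap (3.70%), Sostdc1 and Fstl1. These shares too were below those of all genes.

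Sostdc1, a secreted antagonist of BMP and Wnt signals, was 8.70, 8.85, 9.01 and 9.43 in sham and 10.28, 9.98, 9.60 and 10.57 in IUGR litters. The groups did not overlap, with a difference of 1.11 ± 0.23 (SE), or 2.15-fold, and an adjusted p of 0.079 (limma). It passed without sham replicate 1 (1.01, adjusted p = 0.036), and the groups overlapped after each of the 3 rescalings.

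Genes of activin and nodal signalling outside the members pointed in both directions. Acvr1c, a type I receptor for nodal and related ligands, was 7.92, 7.80, 8.14 and 8.98 in sham and 9.16, 8.61, 8.59 and 9.43 in IUGR litters, a difference of 0.74 ± 0.30 (SE) in which sham replicate 4 lay among the IUGR litters. Nodal itself was 8.04, 8.46, 8.75 and 8.82 in sham and 8.00, 7.96, 8.09 and 8.08 in IUGR litters. Sham replicate 1 lay within the IUGR range, and the difference of -0.48 ± 0.17 became -0.64 without it (adjusted p = 0.011, limma). Fstl3, which like follistatin binds activins, was 10.54, 10.66, 10.96 and 10.52 in sham and 11.32, 11.08, 10.88 and 11.53 in IUGR litters, a difference of 0.53 ± 0.16 (SE).

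The other genes with an unadjusted p under 0.05 were Itgb6, Bambi, Chrdl1 and Bmp10, which were higher, and Rgma and Ltbp2, which were lower. Itgb6 encodes the beta chain of an epithelial integrin that activates latent TGF-beta. It was 7.51, 7.63, 7.76 and 9.29 in sham and 9.57, 8.88, 8.88 and 9.09 in IUGR litters, so that only sham replicate 4 reached the IUGR range. Its difference of 1.06 ± 0.39 (SE) was 1.47 without that litter (adjusted p = 0.032, limma). The pseudoreceptor gene Bambi differed by 0.32 ± 0.13, the BMP antagonist gene Chrdl1 by 0.74 ± 0.29 and Bmp10 by 0.81 ± 0.32 (SE), all higher in IUGR litters, with overlap and without passing. The BMP coreceptor gene Rgma differed by -0.29 ± 0.12 and Ltbp2, a matrix protein gene of the LTBP family, by -0.25 ± 0.11 (SE), also with overlap and without passing.

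**Figure D5:**
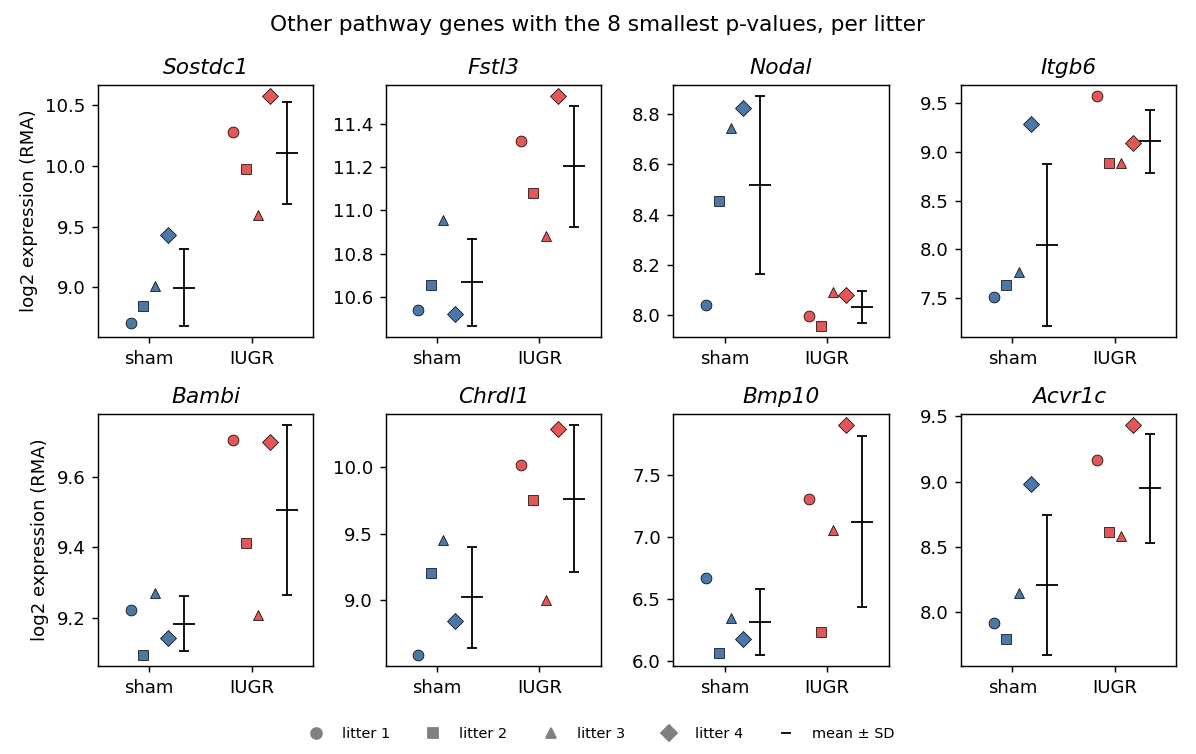
Log2 expression per litter of the 8 other superfamily genes with the smallest p-values, with the mean and SD of each group beside the points. Sostdc1 shows no overlap, Nodal is lower in IUGR litters apart from sham replicate 1, and sham replicate 4 sits with the IUGR litters for Itgb6 and Acvr1c.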

How the data were processed

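The deposited table holds log2 expression for 8 arrays; the submitters' processing notes name RMA as its source. Which software ran it, and whether probes were filtered, is not given in these sources. Arrays have no read depth, and their number limits the precision.

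Of 29214 probe sets, the platform annotation gave 1 gene for 15310, several for 323 and none for 13581. Symbols were updated through RefSeq (GRCr8; 15279 matched, 31 kept their name). The probe set with the highest mean stood for a gene, giving 14506 genes. Deposited values were tested in limma 3.58.1 under R 4.3.3 (lmFit, eBayes, 2 groups, no covariate), two-sided, with Benjamini-Hochberg adjustment over all genes at 0.05. Standard errors and 95% intervals, which are not adjusted for the number of genes, are those of this fit.

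The members and lists were chosen with earlier results of these data known. Litter values were given for the 14 members of smallest p and 9 fixed ones, and for the first 8 of the wider list. The 5 to 14 measured genes of islet, duct, acinar, liver, mesenchyme, endothelial, macrophage and erythroid markers were averaged per litter. In data simulated from these 14506 genes, where 200 genes were changed, 71.1% of 2-fold and 92.3% of 4-fold changes were found. Of the genes called there, 6.23% had not been changed. On the measured arrays 0 of the 12 liver protein genes passed, at a median log2 difference of 1.82. Of the 10 duct genes, at a median of 0.94, 1 passed. Whether the simulated percentages apply to real differences on these arrays was not tested, and no power is read from them. The alternatives are listed in the closing section. Figures were drawn with matplotlib 3.10.9.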

Additional observations from a re-analysis of the deposited data

Results flagged for a closer look

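In 9 of 72 groups of 4 litters, the highest or lowest litter stood apart by Dixon's criterion, which sets its gap to the next litter against the group's range. Chance gives about 1 in 20 such groups. IUGR replicate 4 was that litter in 5 of the 9. Among IUGR litters it was lowest for Grem1 (gap of 0.888 of the range), Bmp4 (0.898) and Ltbp1 (0.890), and highest for Acvr2b (0.907) and Nog (0.852), although the ranges of Acvr2b and Nog were narrow. The mesenchyme marker mean of that litter was 10.78, the lowest of the 8, and its part in these gaps was not tested. IUGR replicate 2 was highest for Fst (0.918). Among sham litters, replicate 4 was lowest for Id2 (0.842) and highest for Inha (0.870), and replicate 1 was lowest for Bmp7 (0.873).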

How the results depend on the processing

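The alternatives were 3 scalings (quantile, cyclic loess and centring on the median), leaving out the dimmest 30% of genes, array weights, a variance prior with trend and robust fitting, a block on replicate number, probe sets averaged per gene or all tested, and each litter left out in turn. Leaving out sham replicates 1 and 4 together, and the arms' litter means by scaling, were chosen after seeing the data.

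Of all genes, 36 passed. The count was 0 after quantile normalization or cyclic loess, with the replicate block or with all probe sets, 1 after median centring, 59 without dim genes, 6358 with array weights, 2795 without sham replicates 1 and 4 and 0 to 2738 with 1 litter left out. Members past the threshold numbered 0, but 9 with array weights, 4 without sham replicates 1 and 4 and 0 to 4 with 1 litter left out. With array weights, where sham replicate 3 had most of the sham weight, 43.8% of all genes passed. Other pathway genes past the threshold numbered 0, but 14, 5 and 0 to 3 in that order. The block left both counts at 0. Deviations from the group means of same-numbered sham and IUGR litters correlated at -0.43, 0.10, -0.12 and -0.13 across genes. Litters with different numbers correlated at -0.17 to 0.38. No pairing by number was seen, though so few correlations cannot exclude one.

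The members' median of 0.13 was -0.096 after median centring and 0.031 after cyclic loess. Median centring gave -0.16 for the TGF-beta, 0.018 for the activin and -0.15 for the BMP arm. With 1 litter left out the medians lay from 0.074 to 0.17 (members), -0.034 to 0.15 (TGF-beta), 0.20 to 0.32 (activin) and 0.012 to 0.16 (BMP).

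Of the members, 13 kept their direction in every alternative and 23 did not. None of the reversed values passed the threshold. Median centring turned Tgfbr1 (-0.078), Inhba (-0.0022), Smad7 (-0.085), Id1 (-0.046), Gdf15 (-0.11), Smad1 (-0.13), Tgfb2 (-0.081), Id2 (-0.15), Tgfb3 (-0.044), Smad9 (-0.077), Smad4 (-0.19), Nog (-0.20), Bmp4 (-0.16) and Inha (-0.21). Cyclic loess turned Tgfbr1 (-0.0053), Gdf15 (-0.0040), Smad1 (-0.065), Tgfb2 (-0.0098), Smad4 (-0.052) and Bmp4 (-0.036), and quantile normalization Smad1 (-0.043), Smad4 (-0.044) and Bmp4 (-0.018). Array weights turned Bmp5 (-0.036), Tgfbr3 (0.10), Id1 (-0.045), Smad5 (0.053), Nog (-0.031), Bmpr2 (0.17), Bmpr1a (0.055), Acvr1 (0.18) and Ltbp1 (0.26). Leaving out sham replicates 1 and 4 turned Tgfbr3 (0.068), Bmp6 (0.0053), Id1 (-0.12), Id2 (-0.027), Nog (-0.0024), Bmpr2 (0.23), Bmpr1a (0.053), Acvr1 (0.16), Bmp4 (-0.23) and Ltbp1 (0.28). With 1 litter left out, signs turned for Id1 (-0.014 to 0.29), Gdf15 (-0.0061 to 0.22), Id2 (-0.046 to 0.14), Tgfb3 (-0.094 to 0.37), Smad9 (-0.028 to 0.33), Smad4 (-0.0030 to 0.11), Bmpr2 (-0.19 to 0.11), Bmpr1a (-0.077 to 0.042), Acvr1 (-0.11 to 0.056), Bmp4 (-0.31 to 0.42), Inha (-0.056 to 0.19), Ltbp1 (-0.15 to 0.21) and Smad2 (-0.10 to 0.080). Median centring subtracts a constant from each array, so it lowered every difference by the same amount (Acvr1b from 0.76 to 0.53, Tgfb1 from -0.57 to -0.80). Its turns therefore fell on genes with small differences above 0. The causes of the other turns were not tested.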

Other observations

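Some genes of the wider list were lower in IUGR litters. Fstl1, a secreted follistatin-like glycoprotein of mesenchymal cells, was 12.43, 12.30, 12.44 and 12.45 in sham and 12.20, 12.28, 12.21 and 11.70 in IUGR litters. The groups did not overlap on the deposited values or after any of the 3 rescalings, and the difference was -0.31 ± 0.13 (SE; adjusted p = 0.195, limma). Rgma, a BMP coreceptor, differed by -0.29 and Nbl1, a BMP antagonist, by -0.45. Both overlapped on the deposited values and did not under any of the 3 rescalings. These 3 genes were chosen after their values were seen.

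Bmp4 and the ID genes were compared across the 8 litters, a choice made after seeing the data. The p-values that follow do not account for that choice, and litters were permuted without regard to group. They are therefore descriptive only. Pearson's r of Bmp4 with Id3 was 0.78 (exact permutation p = 0.023, adjusted over 3 correlations 0.047; Spearman's rho 0.76, exact p = 0.037, adjusted 0.11). With Id2 it was 0.71 (exact p = 0.031, adjusted 0.047; rho 0.57, exact p = 0.15, adjusted 0.23), and with Id1 0.66 (exact p = 0.082, adjusted 0.082; rho 0.12, exact p = 0.79, adjusted 0.79). Without sham replicate 4 and IUGR replicate 4, the 2 litters farthest from the Bmp4 median, r was 0.26 with Id3, 0.55 with Id2 and -0.39 with Id1 (n = 6). With Id3 and Id1 the relation therefore rests on those 2 litters, and with Id2 it was weaker without them.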
